A study of Homo sapiens with 10 samples.

Results

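The 38 genes described here build amino acids and one-carbon units, carry amino acids across membranes, or load them onto cytosolic transfer RNAs. Members are the symbols of a list drawn up with earlier results of these data known, with no measured value in the rule. They comprise 14 synthesis and one-carbon genes, 6 transporters and 18 cytosolic aminoacyl-tRNA synthetases, and all 38 were found among the 25548 symbols of the files. The data were 10 RNA-seq libraries from derivatives of U2OS cells, an established human osteosarcoma line. One line carried the p53 KO label and the other, made with a control CRISPR/Cas9 construct, the p53 WT label, and each was transfected for 96 h with SET-specific siRNA or control siRNA. SET binds histones and p53 and inhibits the phosphatase PP2A. The groups were KO-labelled cells with SET siRNA (n = 2), KO-labelled cells with control siRNA (n = 2), WT-labelled cells with SET siRNA (n = 3) and WT-labelled cells with control siRNA (n = 3). The lines were obtained by selection and clone identification per the design text, so a difference between the lines cannot be told apart from a difference between clones. That text also names SET, not p53, as the target of the CRISPR construct, so the line names are given as labels.

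Expression was measured as FPKM, fragments per kilobase of transcript scaled to the mapped fragments of the library. SET averaged 14.9 ± 0.0302 FPKM in KO-labelled cells with SET siRNA and 164 ± 8.22 FPKM with control siRNA (SD, n = 2 each). In WT-labelled cells it averaged 12.5 ± 0.656 FPKM with SET siRNA and 124 ± 2.64 FPKM with control siRNA (SD, n = 3 each). CDKN1A, a p53 target that encodes a cell cycle inhibitor, averaged 19.4 and 6.67 FPKM in KO-labelled cells with SET and control siRNA and 720.3 and 162 FPKM in WT-labelled cells with SET and control siRNA. Of the markers examined, 5 of 7 for the osteoblast lineage and 2 of 2 mesenchymal ones reached 1 FPKM in every library, against 0 of 4 for blood (summing to at most 0.197 FPKM in any library), 0 of 3 for endothelium (at most 0.344 FPKM) and 1 of 3 for epithelium. The authors' intervals implied 14288434 to 21775347 fragments per library. The median half-width of those intervals over the 38 genes was 2.53 to 3.62% of FPKM. The control siRNA libraries of the KO-labelled line differed most from each other, with a chi-square per degree of freedom of 11.3 over implied fragments, against 4.40 to 7.92 for the other pairs within a group. In bulk libraries of this kind, fewer cells of a type and less RNA per cell cannot be told apart.

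Cells short of amino acids, or under stress of the endoplasmic reticulum, slow translation while favouring that of ATF4, a transcription factor. ATF4 pairs with C/EBP proteins on DNA elements that join a C/EBP site to an ATF site, and its known targets include genes of serine and asparagine synthesis, the mitochondrial one-carbon pathway, amino acid exchangers and many cytosolic tRNA synthetases. Serine made from glycolytic carbon feeds the folate cycle in mitochondria, which supplies glycine and one-carbon units for growth.

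The composite element TGATGNAA, which reads TTNCATCA on the other strand, was searched on both strands of RefSeq promoters of build GRCh38.p14, each 300 bases from 250 before to 50 after the gene's start. Promoters were matched for 30 of the 38 genes, and 12 of those 30 (40%) held the element in at least 1 window, against 1217 of 27305 genes in the table (4.46%). It was present for 2 of 10 synthesis genes, 3 of 6 transporters and 7 of 14 synthetases. These were ASNS, MTHFD1L, SLC3A2, SLC7A1, SLC1A4, AARS, CARS, GARS, IARS, MARS, NARS and TARS. The list was drawn up with earlier results known and holds classes of known ATF4 targets, so these shares describe the list and test nothing. Windows that overlap share their bases, and a match is a description of the letters, not a binding site. The stretches below come from genes called higher with SET siRNA in both lines, and in each the element begins before the start. SLC3A2, SLC7A1, NARS and TARS were also called higher in both lines and are not shown. Their element began after the start, at base 38, 8, 15 and 3. Each stretch is written on the strand of its gene, with the element in capitals.
ASNS, chr7:97872445-97872500, minus strand: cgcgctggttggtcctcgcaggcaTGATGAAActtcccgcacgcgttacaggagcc
AARS, chr16:70289662-70289717, minus strand: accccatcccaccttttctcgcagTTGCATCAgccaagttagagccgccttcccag
CARS, chr11:3057394-3057449, minus strand: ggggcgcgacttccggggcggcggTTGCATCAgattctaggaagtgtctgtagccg
GARS, chr7:30594821-30594876, plus strand: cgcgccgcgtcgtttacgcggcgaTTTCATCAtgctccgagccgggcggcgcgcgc
IARS, chr9:92293679-92293734, minus strand: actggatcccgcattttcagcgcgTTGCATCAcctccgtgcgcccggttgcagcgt
MARS, chr12:57488040-57488095, plus strand: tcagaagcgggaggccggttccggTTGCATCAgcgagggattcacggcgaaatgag
SLC1A4, chr2:64989368-64989423, plus strand: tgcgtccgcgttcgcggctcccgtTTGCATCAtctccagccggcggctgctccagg
The first base of the element lay 68 bases before the start in ASNS, 187 in AARS, 33 in GARS, 13 in IARS, 7 in SLC1A4, 4 in MARS and 2 in CARS. Of these 7, the synthetases AARS, CARS, IARS and MARS and the transporter SLC1A4 carried the letters TTGCATCA.

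SET siRNA was followed by higher mRNA of most of the genes in both lines. In KO-labelled cells 23 of the 38 rose and 1 fell, where limma called 19.8% of all tested genes higher and 17.9% lower, 37.6% in all. With only the 4 KO-labelled libraries in the fit, 15 rose and 0 fell, and the calls of PSAT1, WARS, SLC6A9, SLC1A4, NARS, TARS, EPRS, PSPH and PCK2 were lost (adjusted p from 0.0588 for PSAT1 and WARS to 0.138 for PCK2, with 0.0612 for SLC6A9 and 0.0809 for NARS). In WT-labelled cells 25 rose and 1 fell, where 30.8% of tested genes were called higher and 24% lower, 54.8% in all. The median change of the 38 genes on the log2(FPKM + 1) scale was 0.24 in KO-labelled cells and 0.42 in WT-labelled cells, where the medians over all 14813 tested genes were 0.02 and 0.04. Genes were called at a Benjamini-Hochberg adjusted p below 0.05 over all tested genes, and every ± after a log2 change is limma's standard error. There were 21 genes called higher in both lines and 10 called in neither, namely MTHFD1L, PYCR1, ALDH18A1, CBS, SLC38A2, HARS, KARS, LARS, QARS and RARS. ALDH1L2, CTH and DARS were called higher in WT-labelled cells alone, SLC7A5 and VARS were called higher in KO-labelled cells alone, MTHFD1 was called lower in WT-labelled cells alone, and PSAT1 was called lower in KO-labelled and higher in WT-labelled cells. Whether the lines differ is given by the test of that difference further on. The summed osteoblast-lineage markers moved with the same siRNA, at 276 to 296 FPKM against 552 to 632 FPKM in KO-labelled cells with SET and control siRNA, and at 326 to 363 FPKM against 682 to 732 FPKM in WT-labelled cells with SET and control siRNA. The summed epithelial markers stood at 4.48 to 4.995 FPKM against 2.12 to 2.34 FPKM in KO-labelled cells. In WT-labelled cells their sums were 4.71 to 6.48 FPKM against 2.84 to 2.97 FPKM. Only 1 of these 3 markers reached 1 FPKM in every library. Of the 2 that were tested, 1 was called higher in KO-labelled cells and 2 in WT-labelled cells. Both mesenchymal markers were called lower in each line, with sums of 1221 to 1338 FPKM against 1448 to 1482 FPKM in KO-labelled cells and of 932.6 to 1019 FPKM against 1268 to 1317 FPKM in WT-labelled cells with SET and control siRNA. The part of these markers in the results was not tested.

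**Figure D1:**
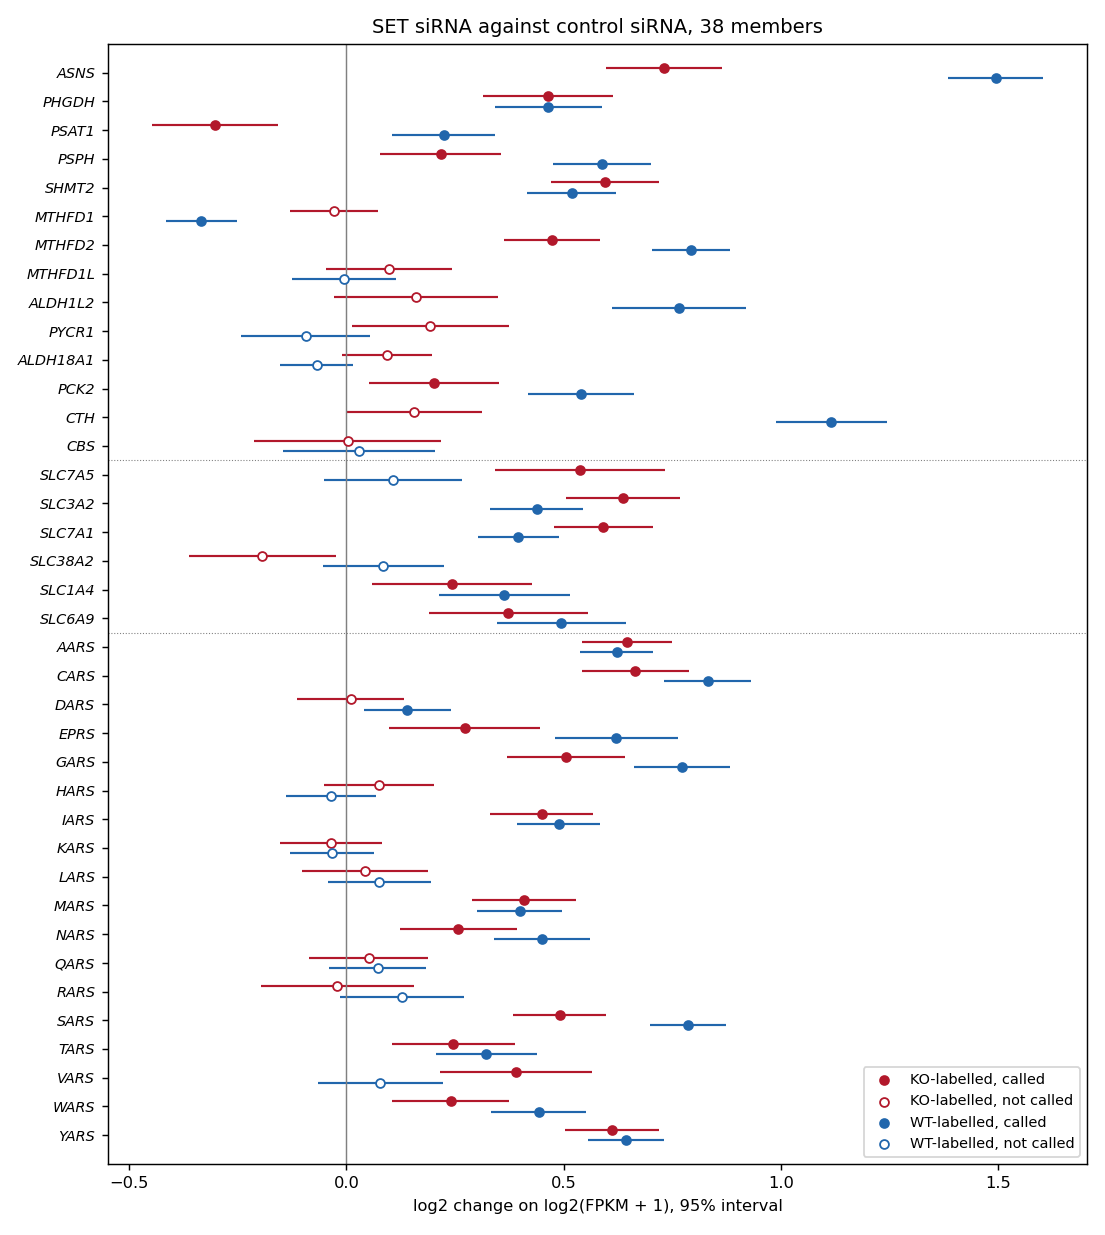
Change with SET siRNA against control siRNA for the 38 genes, in KO-labelled cells (red) and WT-labelled cells (blue), as log2 change on the log2(FPKM + 1) scale with 95% intervals. Filled points were called at adjusted p below 0.05 (limma), and dotted lines part synthesis genes, transporters and synthetases; most points lie right of 0, with ASNS farthest right in both lines.

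ASNS, which encodes asparagine synthetase, had the largest rise of the 38 in both lines. It measured 166 and 173 FPKM with SET siRNA and 97.3 and 106 FPKM with control siRNA in KO-labelled cells. WT-labelled cells had 203, 209 and 203 FPKM with SET siRNA and 68.4, 72.9 and 74.9 FPKM with control siRNA. No SET siRNA library overlapped a control library in either line. The log2 change was 0.73 ± 0.06 in KO-labelled cells (adjusted p = 3.7e-05) and 1.49 ± 0.05 in WT-labelled cells (adjusted p = 1.1e-07).

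The serine pathway genes PHGDH, PSAT1 and PSPH all rose in WT-labelled cells, but in KO-labelled cells PSAT1 was called lower. PHGDH, the first enzyme of serine synthesis, measured 255 and 244 FPKM with SET siRNA and 194 and 168 FPKM with control siRNA in KO-labelled cells. In WT-labelled cells it measured 207, 198 and 209.6 FPKM with SET siRNA and 149, 147 and 148 FPKM with control siRNA. The groups were apart in each line and PHGDH rose by 0.46 in both (SE 0.07 and 0.05, adjusted p = 0.00077 and 0.0001 in KO- and WT-labelled cells). PSAT1, the aminotransferase that follows it, measured 40.2 and 43.0 FPKM with SET siRNA and 48.8 and 54.4 FPKM with control siRNA in KO-labelled cells, a fall of the SET siRNA libraries below both controls (-0.30 ± 0.06, adjusted p = 0.0059). In WT-labelled cells the order was the other way, with 44.8, 46.3 and 43.0 FPKM with SET siRNA and 37.1, 38.9 and 38.4 FPKM with control siRNA (0.22 ± 0.05, adjusted p = 0.0055). The fall in KO-labelled cells lost its call without SET siRNA library 1 of that line (adjusted p = 0.0515). PSPH, the phosphatase that completes serine, rose by 0.22 ± 0.06 in KO-labelled cells (adjusted p = 0.022) and by 0.59 ± 0.05 in WT-labelled cells (adjusted p = 1.6e-05). Its KO-labelled call was lost without SET siRNA library 1 or 2 or control library 1 of that line, with adjusted p from 0.0795 to 0.0954.

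SHMT2 and MTHFD2 of the mitochondrial folate pathway rose in both lines, and MTHFD1, a cytosolic counterpart of MTHFD2, rose in neither. SHMT2, which splits serine to glycine in mitochondria, measured 163 and 159 FPKM with SET siRNA and 111 and 102 FPKM with control siRNA in KO-labelled cells. It measured 148, 154 and 156 FPKM with SET siRNA and 107, 109.6 and 103 FPKM with control siRNA in WT-labelled cells. The rises were 0.60 ± 0.06 (adjusted p = 6.9e-05) and 0.52 ± 0.04 (adjusted p = 1.7e-05) in KO- and WT-labelled cells. MTHFD2, the mitochondrial methylene-tetrahydrofolate dehydrogenase, measured 227 and 235 FPKM with SET siRNA and 159.8 and 172 FPKM with control siRNA in KO-labelled cells. In WT-labelled cells its values were 186, 196 and 189 FPKM with SET siRNA and 108, 109.7 and 110.0 FPKM with control siRNA. All SET siRNA libraries stood above their controls, by 0.47 ± 0.05 in KO-labelled cells (adjusted p = 0.00013) and by 0.79 ± 0.04 in WT-labelled cells (adjusted p = 9.1e-07). ALDH1L2, a mitochondrial formyl-tetrahydrofolate dehydrogenase and the lowest of the 38 genes by mean FPKM, rose by 0.76 ± 0.07 in WT-labelled cells (adjusted p = 2.1e-05) and stood at 0.16 ± 0.08 in KO-labelled cells (adjusted p = 0.16). MTHFD1L, which completes the mitochondrial route to formate, was at 0.10 and -0.01 in KO- and WT-labelled cells and was not called, although its promoter held the element. MTHFD1, the cytosolic enzyme, measured 94.8 and 93.8 FPKM with SET siRNA against 95.9 and 96.4 FPKM with control siRNA in KO-labelled cells (-0.03 ± 0.04, adjusted p = 0.65). It fell in WT-labelled cells, to 78.2, 82.4 and 80.9 FPKM with SET siRNA against 99.9, 100.4 and 105 FPKM with control siRNA (-0.33 ± 0.04, adjusted p = 7.1e-05).

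Among the remaining synthesis genes, CTH, the cystathionine gamma-lyase that releases cysteine, showed the second largest rise in WT-labelled cells. It measured 15.3 and 15.4 FPKM with SET siRNA and 12.7 and 14.8 FPKM with control siRNA in KO-labelled cells, and 12.4, 12.1 and 11.8 FPKM with SET siRNA and 5.12, 5.08 and 4.92 FPKM with control siRNA in WT-labelled cells. The change was 0.16 ± 0.07 in KO-labelled cells (adjusted p = 0.11) and 1.12 ± 0.06 in WT-labelled cells (adjusted p = 9.1e-07). CTH was called higher in KO-labelled cells without control library 2 of that line (adjusted p = 0.0143). CBS, the step before CTH, was not called in any of the 5 comparisons, with changes of 0.00 ± 0.10 and 0.03 ± 0.08 in KO- and WT-labelled cells. PCK2, the mitochondrial phosphoenolpyruvate carboxykinase, rose by 0.54 ± 0.05 in WT-labelled cells (adjusted p = 4.1e-05). In KO-labelled cells its change was 0.20 ± 0.07 (adjusted p = 0.039), a call that was lost when any 1 of 7 libraries was left out (SET siRNA libraries 1 and 2 and control library 2 of that line, and WT-labelled SET siRNA library 2 and control libraries 1 to 3), with adjusted p from 0.0514 to 0.201. The proline genes ALDH18A1 and PYCR1 were called in neither line. PYCR1 was called higher in KO-labelled cells without control library 1 of that line (adjusted p = 0.0105).

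**Figure D2:**
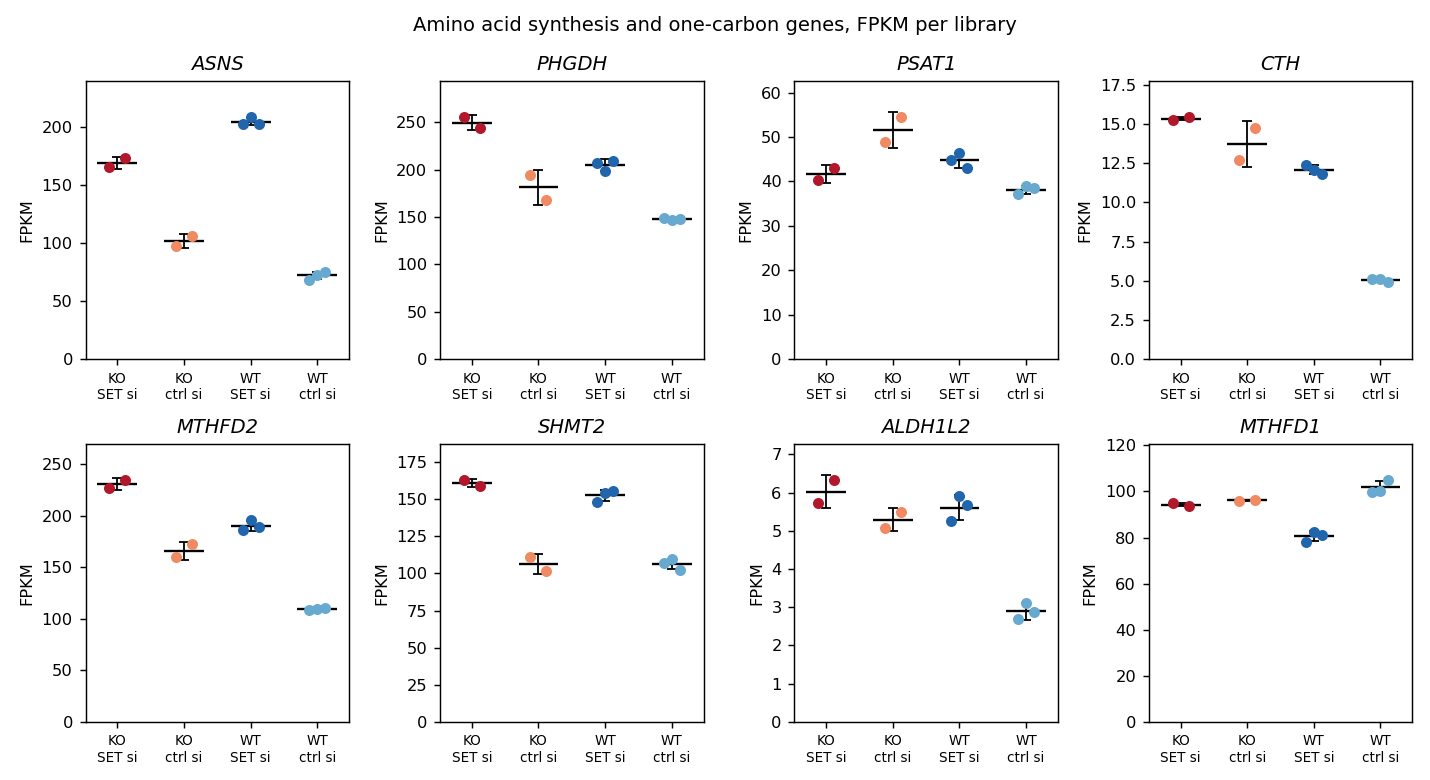
FPKM per library of 8 synthesis and one-carbon genes in KO-labelled cells with SET and control siRNA (red, orange) and WT-labelled cells with SET and control siRNA (dark and light blue); points are libraries, wide bars group means and error bars SD. ASNS stands at 166 to 173 FPKM in KO-labelled cells and 203 to 209 FPKM in WT-labelled cells with SET siRNA, while PSAT1 is below its controls in KO-labelled cells and above them in WT-labelled cells.

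Of the 6 transporters, 5 rose in KO-labelled cells and 4 in WT-labelled cells, and none was called lower in either line. Of all tested genes, 19.8% were called higher and 17.9% lower in KO-labelled cells, and 30.8% and 24% in WT-labelled cells. SLC3A2, the heavy chain that several exchangers need, measured 295 and 274 FPKM with SET siRNA and 191 and 175 FPKM with control siRNA in KO-labelled cells. The WT-labelled libraries had 252, 254 and 259 FPKM with SET siRNA and 194, 185 and 185 FPKM with control siRNA. It rose by 0.64 ± 0.06 (adjusted p = 6.4e-05) in KO-labelled cells and by 0.44 ± 0.05 (adjusted p = 6.7e-05) in WT-labelled cells, with no overlap. SLC7A5, the light chain that pairs with SLC3A2 to bring in leucine and other large neutral amino acids, measured 189 and 186 FPKM with SET siRNA and 141 and 118 FPKM with control siRNA in KO-labelled cells (0.54 ± 0.09, adjusted p = 0.0014). Its WT-labelled libraries overlapped, at 168, 162 and 173 FPKM with SET siRNA and 167, 154 and 146 FPKM with control siRNA (0.11 ± 0.07, adjusted p = 0.23). SLC7A1, a carrier of arginine and lysine, rose by 0.59 ± 0.05 in KO-labelled cells (adjusted p = 4.7e-05) and by 0.40 ± 0.04 in WT-labelled cells (adjusted p = 5.3e-05). SLC6A9, a glycine transporter, rose by 0.37 ± 0.08 and 0.49 ± 0.07 in KO- and WT-labelled cells, and SLC1A4, which exchanges alanine, serine and cysteine, by 0.24 ± 0.08 and 0.36 ± 0.07. The SLC1A4 call in KO-labelled cells (adjusted p = 0.043) was lost when any 1 of 6 libraries was left out (the 4 of that line, WT-labelled SET siRNA library 1 and WT-labelled control library 3), with adjusted p from 0.0575 to 0.159. SLC38A2, a carrier of glutamine and other small neutral amino acids and a textbook target of amino acid shortage, was not called in any of the 5 comparisons, at -0.19 ± 0.08 (adjusted p = 0.070) and 0.09 ± 0.06 (adjusted p = 0.26) in KO- and WT-labelled cells. Without KO-labelled control library 1 it was called lower in KO-labelled cells (-0.31, adjusted p = 0.0058).

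The 18 cytosolic synthetases, each of which joins 1 amino acid (2 in EPRS) to its transfer RNA, included 12 that rose in each line and none called lower. Among all tested genes, 19.8% were called higher and 17.9% lower in KO-labelled cells, and 30.8% and 24% in WT-labelled cells. The 11 synthetases that rose in both lines were AARS, CARS, EPRS, GARS, IARS, MARS, NARS, SARS, TARS, WARS and YARS. VARS rose in KO-labelled cells alone, DARS in WT-labelled cells alone, and HARS, KARS, LARS, QARS and RARS were called in neither. AARS, the alanine enzyme, measured 78.2 and 76.4 FPKM with SET siRNA and 50.5 and 47.7 FPKM with control siRNA in KO-labelled cells. WT-labelled cells had 111, 111 and 111 FPKM with SET siRNA and 69.7, 72.1 and 73.4 FPKM with control siRNA. The rises were 0.65 ± 0.05 (adjusted p = 1.8e-05) and 0.62 ± 0.04 (adjusted p = 2.2e-06) in KO- and WT-labelled cells. CARS, the cysteine enzyme, had the largest rise among the synthetases, by 0.66 ± 0.05 and 0.83 ± 0.04 (adjusted p = 3.9e-05 and 1.2e-06). It measured 77.5 and 85.0 FPKM with SET siRNA and 50.8 and 50.9 FPKM with control siRNA in KO-labelled cells, and 80.1, 81.4 and 83.0 FPKM with SET siRNA and 44.3, 44.8 and 47.1 FPKM with control siRNA in WT-labelled cells. YARS, the tyrosine enzyme, rose by 0.61 ± 0.05 and 0.64 ± 0.04 (adjusted p = 3.1e-05 and 2.4e-06).

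SARS, the serine enzyme, measured 245 and 244 FPKM with SET siRNA and 176 and 171 FPKM with control siRNA in KO-labelled cells, and 244, 254 and 248 FPKM with SET siRNA and 144, 138 and 149 FPKM with control siRNA in WT-labelled cells. The changes were 0.49 ± 0.05 (adjusted p = 9e-05) and 0.79 ± 0.04 (adjusted p = 8.6e-07) in KO- and WT-labelled cells. GARS, the glycine enzyme and the highest of the 38 genes by mean FPKM, rose by 0.51 ± 0.06 and 0.77 ± 0.05 (adjusted p = 0.00028 and 3e-06). EPRS, which charges both glutamate and proline, measured 107 and 113 FPKM with SET siRNA and 84.0 and 98.2 FPKM with control siRNA in KO-labelled cells (0.27 ± 0.08, adjusted p = 0.021). In WT-labelled cells it measured 111, 116 and 107 FPKM with SET siRNA and 69.3, 72.4 and 75.0 FPKM with control siRNA (0.62 ± 0.06, adjusted p = 4.3e-05). The other 5 shared members rose by 0.24 (WARS) to 0.45 (IARS) in KO-labelled cells and by 0.32 (TARS) to 0.49 (IARS) in WT-labelled cells. In KO-labelled cells 3 of these calls were lost with 1 library left out: EPRS without SET siRNA library 2 or control library 1 (adjusted p = 0.12 and 0.0958), TARS without the same libraries (adjusted p = 0.0811 and 0.0501) and WARS without SET siRNA library 1 or 2 (adjusted p = 0.0507 and 0.0674). DARS, the aspartate enzyme, rose by 0.14 ± 0.04 in WT-labelled cells (adjusted p = 0.024), a call lost without SET siRNA library 1 or 2 or control library 1 or 3 of that line (adjusted p from 0.069 to 0.0794).

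QARS, the glutamine enzyme, gave overlapping libraries in KO-labelled cells, at 133 and 129 FPKM with SET siRNA and 135 and 119 FPKM with control siRNA. In WT-labelled cells it stood at 138, 139 and 144 FPKM with SET siRNA and 135, 131 and 134 FPKM with control siRNA. It was not called in any of the 5 comparisons (0.05 ± 0.06 and 0.07 ± 0.05 in KO- and WT-labelled cells, adjusted p = 0.54 and 0.25). RARS, the arginine enzyme, was called higher in WT-labelled cells without KO-labelled control library 1 or 2 (0.13, adjusted p = 0.0345 and 0.0346). VARS, the valine enzyme, rose in KO-labelled cells (0.39 ± 0.08, adjusted p = 0.0043) and was not called in WT-labelled cells (0.08 ± 0.06, adjusted p = 0.32). EPRS, IARS, LARS, MARS, QARS, RARS, KARS and DARS are known to sit together in the multi-synthetase complex. Of these 8, 3 rose in KO-labelled cells and 4 in WT-labelled cells, with median changes of 0.05 and 0.13. Of the 10 other synthetases 9 rose in KO-labelled cells and 8 in WT-labelled cells, with medians of 0.44 and 0.54. Over all tested genes 19.8% were called higher in KO-labelled cells and 30.8% in WT-labelled cells, with medians of 0.02 and 0.04. The grouping by complex was chosen after the values were seen and was not tested.

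**Figure D3:**
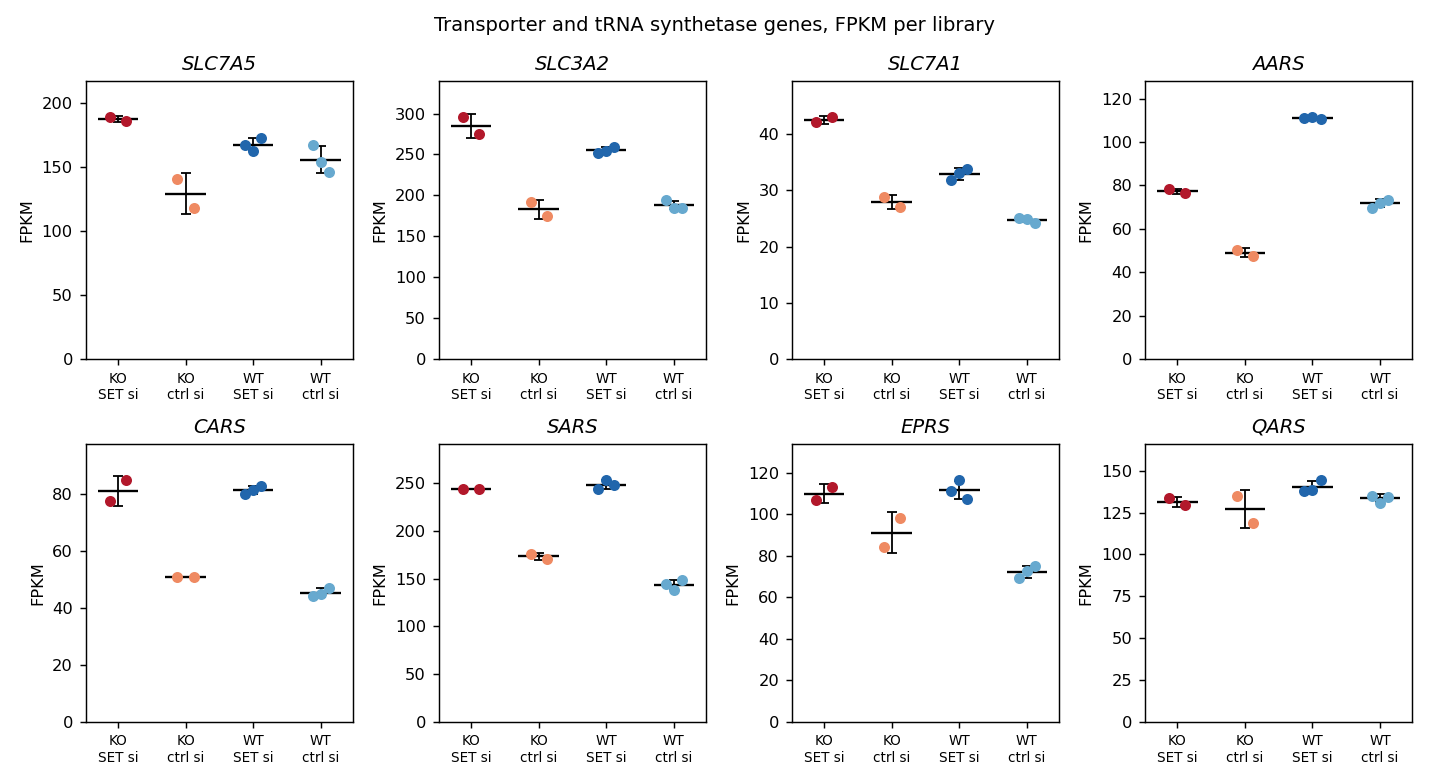
FPKM per library of 3 transporter and 5 synthetase genes in KO-labelled cells with SET and control siRNA (red, orange) and WT-labelled cells with SET and control siRNA (dark and light blue); points are libraries, wide bars group means and error bars SD. AARS is higher with SET siRNA in both lines and lower in the KO-labelled than in the WT-labelled line under both siRNAs, and the QARS groups lie close together.

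Set against the promoter letters shown above, 11 of the 19 genes with a promoter that rose in KO-labelled cells held TGATGNAA (57.9%), as did 1 of the 11 that did not rise (9.09%). In WT-labelled cells the counts were 11 of 20 (55%) and 1 of 10 (10%). These counts describe a list chosen with earlier results known, and the split was not tested. MTHFD1L was the member that held it without rising in either line. PHGDH, PSAT1, MTHFD2, PCK2, CTH, SLC7A5, SLC6A9, EPRS, SARS and WARS rose in at least 1 line and had a matched promoter without those letters. Several of the 38 share reads with other entries if strand was not kept, which the labels do not state: the files list DDIT3 over the last 68 bases of MARS (mean 55.2 and 151 FPKM), LOC100506670 over 1305 bases of SLC7A5 (37.7 and 160 FPKM) and S100PBP over 458 bases of YARS (18.2 and 125 FPKM). SLC7A5 also has the copies SLC7A5P1 and SLC7A5P2, listed at means of 3.26 and 5.38 FPKM, so its values are uncertain to that extent.

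ATF4 mRNA, which encodes the factor introduced above, rose in both lines. It measured 682 and 726 FPKM with SET siRNA and 420.5 and 409.7 FPKM with control siRNA in KO-labelled cells. In WT-labelled cells it measured 679.8, 702 and 692 FPKM with SET siRNA and 358, 371 and 375 FPKM with control siRNA. SET siRNA libraries were above all controls in both lines. Among 18 regulators and further targets, KO-labelled cells had 11 that rose, 1 that fell and 6 not called, and WT-labelled cells had 14, 1 and 3, beside the all-gene shares of 19.8% higher and 17.9% lower in KO-labelled cells and of 30.8% and 24% in WT-labelled cells. The member that fell was EIF2AK1, a kinase of eIF2 alpha, in both lines (-0.22 ± 0.05 and -0.19 ± 0.04, adjusted p = 0.0097 and 0.0048 in KO- and WT-labelled cells). The kinases EIF2AK2 and EIF2AK4 were called in neither line, at -0.06 and -0.09 in KO-labelled cells and 0.22 and -0.03 in WT-labelled cells. A further kinase of eIF2 alpha, EIF2AK3, is given below among the genes whose response differed between the lines. In KO-labelled cells the largest changes were those of PPP1R15A (1.52), which restores translation by dephosphorylating eIF2 alpha, ATF3 (1.40) and DDIT3 (1.26), stress-induced transcription factors, and NUPR1 (1.23), a stress-induced chromatin protein. In WT-labelled cells they were ATF3 (2.37), SESN2 (1.77), an inhibitor of mTORC1 under leucine shortage, PPP1R15A (1.77) and NUPR1 (1.71).

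Genes of neighbouring function are given by the same counts, beside 19.8% of all tested genes called higher and 17.9% lower in KO-labelled cells and 30.8% higher and 24% lower in WT-labelled cells. Of 17 mitochondrial tRNA synthetases, 5 rose and none was called lower in KO-labelled cells, and 6 rose and 1 fell in WT-labelled cells, with medians of 0.17 and 0.08. The largest were EARS2 (0.50), YARS2 (0.35), LARS2 (0.26) and CARS2 (0.20) in KO-labelled cells and RARS2 (0.49), EARS2 (0.41), SARS2 (-0.41) and AARS2 (0.35) in WT-labelled cells. Of 6 other cytosolic synthetase and complex genes, FARSA (0.31) and AIMP2 (0.21) rose in KO-labelled cells, while in WT-labelled cells AIMP1 (0.32) rose and AIMP2 (-0.13) fell. Folate and methionine genes numbered 19 tested, of which KO-labelled cells had 7 higher and 5 lower and WT-labelled cells 5 higher and 9 lower. SLC25A32, the mitochondrial folate carrier, led in both lines, at 12.8 and 13.1 FPKM with SET siRNA against 22.5 and 24.3 FPKM with control siRNA in KO-labelled cells (-0.80), and at 13.4, 12.7 and 11.4 FPKM against 20.5, 20.6 and 20.5 FPKM in WT-labelled cells with SET and control siRNA (-0.68). It fell while the mitochondrial enzymes SHMT2 and MTHFD2 rose. The next largest were MTRR (0.39), SLC19A1 (0.37) and ALDH1L1 (0.35) in KO-labelled cells and FPGS (-0.52), SHMT1 (-0.42) and SLC19A1 (-0.42) in WT-labelled cells. SHMT1, the cytosolic counterpart of SHMT2, and SLC19A1, the reduced folate carrier, thus fell in WT-labelled cells.

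Among 18 tested further amino acid transporters, 8 were called higher and 1 lower in KO-labelled cells, and 9 higher and 2 lower in WT-labelled cells. The all-gene shares were 19.8% higher and 17.9% lower in KO-labelled cells and 30.8% and 24% in WT-labelled cells. SLC1A5, a glutamine carrier, led in KO-labelled cells (0.57), followed by SLC43A1 (0.52), SLC43A2 (0.48) and SLC38A7 (0.45). SLC7A11, the cystine-glutamate exchanger, led in WT-labelled cells (0.89), followed by SLC43A2 (0.68), SLC6A6 (0.52) and SLC38A7 (0.50). Among 12 tested further amino acid enzymes, 3 were called higher and 1 lower in KO-labelled cells, and 3 higher and 2 lower in WT-labelled cells. ASS1, argininosuccinate synthase, fell in both lines (-0.50 and -0.29 in KO- and WT-labelled cells), and the transaminase GPT2 rose in both (0.27 and 0.19). GOT1 (0.33) and GLUD1 (0.18) completed the largest in KO-labelled cells, and PYCRL (-0.40) and OAT (0.28) in WT-labelled cells.

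The response itself differed between the lines for 12 of the 38 genes. Taking the KO-labelled response minus the WT-labelled response, 10 genes were called lower and 2 higher, where 10.5% of tested genes were called lower and 8.6% higher, 19.1% in all. The median over the 38 was -0.06, and over all tested genes -0.03. Of the 14 synthesis genes 7 were called lower and 1 higher, with a median of -0.17. Of the 18 synthetases 3 were called lower and none higher, and 1 of the 6 transporters was called higher. CTH had the largest difference (-0.96 ± 0.09, adjusted p = 0.00035), followed by ASNS (-0.76 ± 0.08, adjusted p = 0.0005) and ALDH1L2 (-0.60 ± 0.11, adjusted p = 0.0071). PSAT1 followed at -0.53 ± 0.08 (adjusted p = 0.004), with the opposite directions given above, then PSPH at -0.37 ± 0.08 (adjusted p = 0.014) and EPRS at -0.35 ± 0.10 (adjusted p = 0.038). MTHFD1 (0.31 ± 0.06, adjusted p = 0.0088) and SLC7A5 (0.43 ± 0.11, adjusted p = 0.028) were the 2 called higher. The levels of CTH, ASNS and ALDH1L2 with control siRNA were higher in the KO-labelled than in the WT-labelled line, so the lines did not start from the same value.

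The other 26 genes were not called for the difference, which does not show that the lines act alike. Some of them differed by as much as called genes, such as VARS at 0.31 ± 0.10 (adjusted p = 0.058) and SLC38A2 at -0.28 ± 0.10 (adjusted p = 0.073). The difference was -0.00 ± 0.09 for PHGDH (adjusted p = 0.997), 0.02 ± 0.06 for AARS (adjusted p = 0.80), 0.20 ± 0.07 for SLC3A2 (adjusted p = 0.092) and -0.02 ± 0.08 for QARS (adjusted p = 0.87). MTHFD2 was called lower (-0.32 ± 0.06, adjusted p = 0.010). Leaving out each library in turn, ASNS, PSAT1, ALDH1L2, CTH and MTHFD1 kept their calls whichever library was absent. MTHFD2, PSPH and SARS lost theirs without KO-labelled SET siRNA library 1 (adjusted p = 0.0543, 0.0605 and 0.053), which left 4 genes called lower. PCK2 lost its call without KO-labelled SET siRNA library 1 or 2, WT-labelled SET siRNA library 2 or WT-labelled control library 1 (adjusted p from 0.0537 to 0.0854). EPRS and SLC7A5 lost theirs without any 1 of 7 libraries, which were KO-labelled SET siRNA libraries 1 and 2, KO-labelled control library 2, and libraries 1 and 2 of both WT-labelled groups, and GARS without any of those or WT-labelled SET siRNA library 3 (adjusted p from 0.0686 to 0.142 for EPRS, 0.0506 to 0.0965 for SLC7A5 and 0.0707 to 0.149 for GARS). Without KO-labelled control library 1 the number called higher was 6 in place of 2, and PYCR1, SLC3A2, SLC7A1 and VARS joined (adjusted p = 0.0114, 0.0252, 0.0266 and 0.0106), while NARS, RARS and SLC38A2 joined those called lower (adjusted p = 0.0109, 0.0348 and 0.0077). Without KO-labelled control library 2, ALDH18A1 was called higher (adjusted p = 0.0472). Without WT-labelled control library 3, VARS was called higher and WARS lower (adjusted p = 0.0471 and 0.0418).

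**Figure D4:**
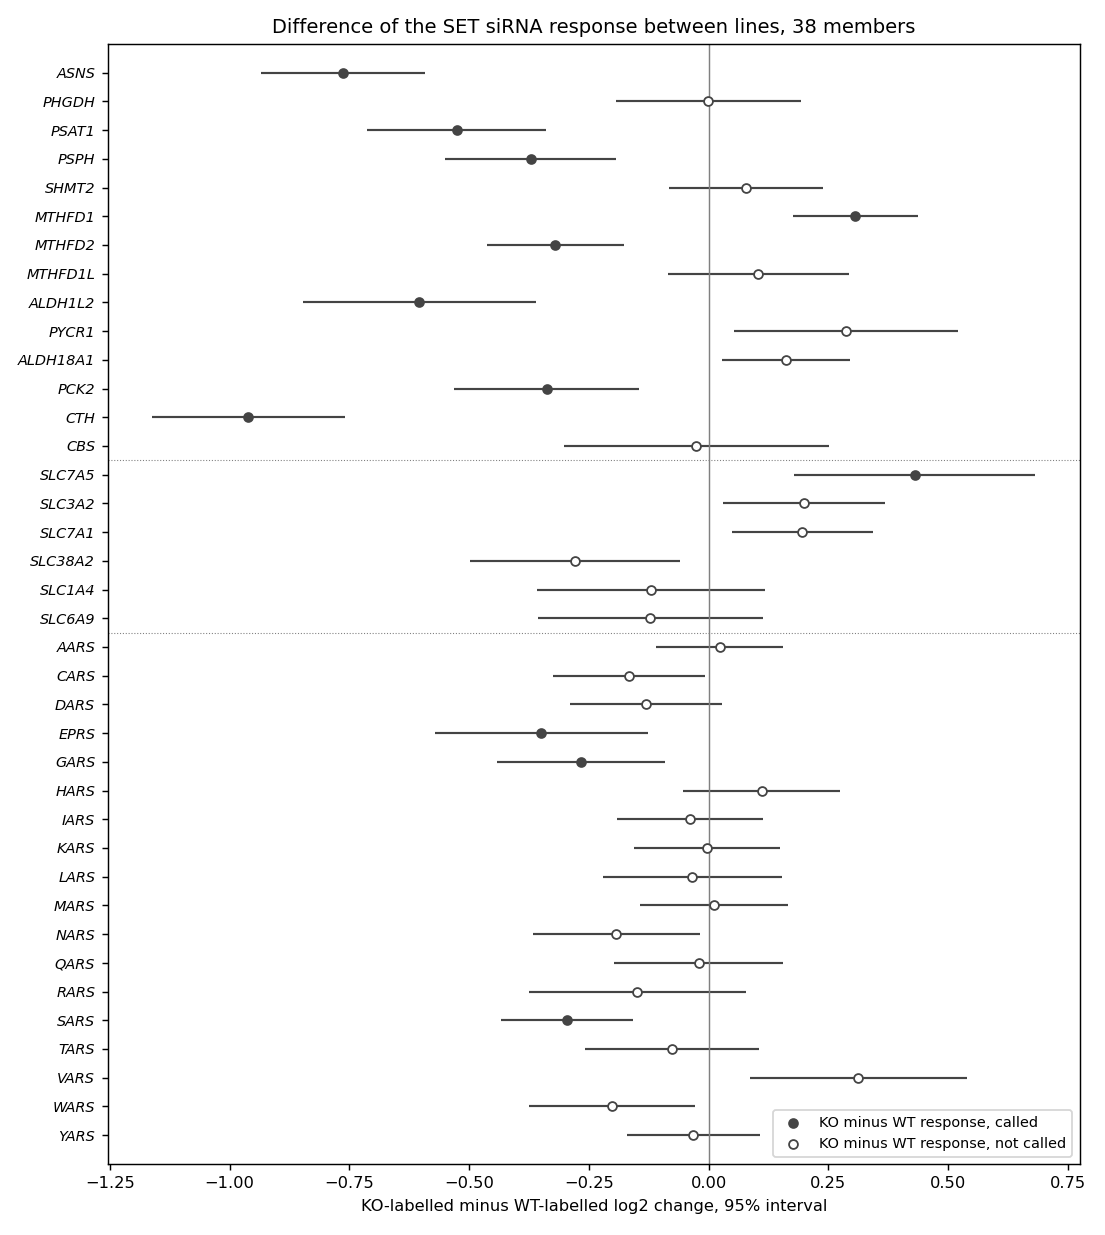
Difference of the SET siRNA response between lines for the 38 genes, KO-labelled minus WT-labelled log2 change on the log2(FPKM + 1) scale, with 95% intervals; filled points were called at adjusted p below 0.05 (limma). CTH (-0.96) and ASNS (-0.76) lie farthest left and SLC7A5 (0.43) and MTHFD1 (0.31) are the called points on the right.

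Among the regulators and targets 7 of 18 had a lower response in KO-labelled cells and 1 a higher one. Over all tested genes 10.5% were called lower and 8.6% higher for this difference. The largest differences were those of ATF3 (-0.97), CHAC1 (-0.77), a glutathione-degrading enzyme, SESN2 (-0.69) and EIF2AK3 (-0.55), a kinase of eIF2 alpha. In the other lists the differences called were those of RARS2 (-0.39), FARSA (0.47), AIMP2 (0.34), SLC19A1 (0.78), MAT2A (0.33), SHMT1 (0.33), OAT (-0.27), SLC7A11 (-0.70) and SLC7A2 (0.34). SLC7A11 measured 34.4 and 37.6 FPKM with SET siRNA and 28.9 and 34.3 FPKM with control siRNA in KO-labelled cells, and 36.8, 37.1 and 34.3 FPKM with SET siRNA and 18.4, 19.9 and 18.6 FPKM with control siRNA in WT-labelled cells. Its WT-labelled controls were the low group, as they were for CTH.

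With control siRNA, the KO-labelled line had more mRNA than the WT-labelled line for 20 of the 38 genes and less for 6, where 25.7% of tested genes were called higher and 22.2% lower, 47.9% in all. The median difference was 0.16, against 0.02 over all tested genes, and 0.35 over the 14 synthesis genes. This comparison uses the same control libraries as the responses above, so their values are set side by side and not combined. CTH led, at 12.7 and 14.8 FPKM in KO-labelled cells against 5.12, 5.08 and 4.92 FPKM in WT-labelled cells (1.28 ± 0.06, adjusted p = 1.1e-06). ALDH1L2 measured 5.07 and 5.50 FPKM in KO-labelled cells and 2.68, 3.11 and 2.87 FPKM in WT-labelled cells (0.69 ± 0.08, adjusted p = 0.00012). WARS, the tryptophan enzyme, measured 40.9 and 41.0 FPKM in KO-labelled cells and 25.1, 26.1 and 28.2 FPKM in WT-labelled cells (0.61 ± 0.05, adjusted p = 3.4e-05). The groups of these 3 genes did not overlap. MTHFD2 (0.60 ± 0.04, adjusted p = 1.3e-05), GARS (0.55 ± 0.05, adjusted p = 6.6e-05) and SLC1A4 (0.53 ± 0.07, adjusted p = 0.00048) completed the largest rises. ASNS (0.49), PSAT1 (0.43), EPRS (0.33) and PHGDH (0.28) were also called higher, and SLC3A2 (-0.04) and QARS (-0.07) were not called.

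The genes called lower with control siRNA were led by AARS, at 50.5 and 47.7 FPKM in KO-labelled cells against 69.7, 72.1 and 73.4 FPKM in WT-labelled cells (-0.54 ± 0.04, adjusted p = 1.5e-05). VARS (-0.47 ± 0.07, adjusted p = 0.00077) and MTHFD1L (-0.31 ± 0.06, adjusted p = 0.0025) kept their calls whichever library was left out, as did AARS. SLC7A5 (-0.27 ± 0.08, adjusted p = 0.020) and PYCR1 (-0.26 ± 0.07, adjusted p = 0.017) lost theirs without KO-labelled control library 2 (adjusted p = 0.173 and 0.147) or WT-labelled control library 1 (adjusted p = 0.0621 and 0.0557). KARS, the lysine enzyme (-0.14 ± 0.05, adjusted p = 0.036), lost its call without KO-labelled control library 1 or 2, WT-labelled control library 1 or 3 or WT-labelled SET siRNA library 2 (adjusted p from 0.0519 to 0.133). Of the genes called higher, CARS lost its call without KO-labelled control library 1 or 2 or WT-labelled control library 1 or 2 (adjusted p from 0.057 to 0.0843), LARS and NARS without KO-labelled control library 2 (adjusted p = 0.0655 and 0.122) and SLC7A1 without KO-labelled control library 1 (adjusted p = 0.0719). Calls were gained by DARS without KO-labelled control library 1 or WT-labelled control library 2 (adjusted p = 0.0136 and 0.0386) and, without KO-labelled control library 1, by TARS, RARS and SLC38A2 as higher (adjusted p = 0.0186, 0.0187 and 0.0086) and by QARS as lower (-0.16, adjusted p = 0.0203). With only the 5 control siRNA libraries in the fit, 3 genes were called lower, and PYCR1, SLC7A5, KARS, SLC7A1, CARS and NARS lost their calls (adjusted p from 0.0656 to 0.105).

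With SET siRNA in both lines, 14 of the 38 were higher in the KO-labelled line and 4 lower, where 23.6% of tested genes were called higher and 24.8% lower, 48.4% in all. The median difference was 0.03, against -0.00 over all tested genes. ALDH18A1, which begins proline synthesis, led at 49.3 and 48.2 FPKM in KO-labelled cells against 34.1, 33.8 and 34.1 FPKM in WT-labelled cells (0.51 ± 0.04, adjusted p = 1.4e-05). WARS (0.41 ± 0.05, adjusted p = 0.00024), SLC1A4 (0.41 ± 0.07, adjusted p = 0.0016), SLC7A1 (0.36 ± 0.05, adjusted p = 0.00019), CTH (0.32 ± 0.06, adjusted p = 0.0025) and PHGDH (0.28 ± 0.06, adjusted p = 0.004) followed. MTHFD2 (0.28) was called higher, and PSAT1 (-0.10), SLC7A5 (0.16), EPRS (-0.02) and QARS (-0.09) were not called. ASNS was lower in the KO-labelled line here, at 166 and 173 FPKM against 203, 209 and 203 FPKM (-0.27 ± 0.05, adjusted p = 0.0027), the opposite of its order with control siRNA. AARS stayed lower, at 78.2 and 76.4 FPKM in KO-labelled cells against 111, 111 and 111 FPKM in WT-labelled cells (-0.52 ± 0.04, adjusted p = 1.2e-05).

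Several of the weaker differences with SET siRNA lost their calls when 1 library was left out. MTHFD1L (-0.21 ± 0.06, adjusted p = 0.017) lost its call without KO-labelled library 1 or WT-labelled library 3 (adjusted p = 0.163 and 0.0527). KARS (-0.14 ± 0.05, adjusted p = 0.033) lost its call without KO-labelled library 1 or 2 or WT-labelled library 2 or 3 (adjusted p from 0.0506 to 0.227). SLC3A2 (0.16 ± 0.05, adjusted p = 0.033) lost its call without KO-labelled library 1 or any WT-labelled library (adjusted p from 0.0527 to 0.249). LARS, the leucine enzyme, lost its call without KO-labelled library 1 or 2 (adjusted p = 0.0523 and 0.0954), SLC6A9 without those or WT-labelled library 1 (adjusted p from 0.0563 to 0.0955), and PCK2 without those, WT-labelled library 2 or WT-labelled control library 1 or 2 (adjusted p from 0.0526 to 0.175). SLC7A5 as higher and VARS and SLC38A2 as lower gained a call without KO-labelled control library 1 (adjusted p = 0.0448, 0.0421 and 0.0262) or 2 (adjusted p = 0.045, 0.0423 and 0.0263), and with only the SET siRNA libraries in the fit (adjusted p = 0.0172, 0.0264 and 0.0361).

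Differences between the lines were also read beside neighbouring genes, taking the 15 tested genes on each side with a mean of at least 5 FPKM. The 30 neighbours of AARS on chromosome 16 had a median of -0.43 with SET siRNA and -0.46 with control siRNA, beside -0.52 and -0.54 for AARS itself, and 26 of the 30 were called lower under each siRNA. KARS, also on chromosome 16, stood at -0.14 under both siRNAs beside medians of -0.32 and -0.23 with SET and control siRNA. The neighbours of SLC7A5 on the same chromosome had a median of -0.30 with SET siRNA (SLC7A5 0.16) and -0.33 with control siRNA (SLC7A5 -0.27). PYCR1 on chromosome 17 stood at -0.26 with control siRNA beside a median of -0.51, with 28 of 30 neighbours called lower. ALDH18A1 on chromosome 10 stood at 0.51 and 0.34 with SET and control siRNA beside medians of 0.32 and 0.41, with 22 of 30 neighbours called higher under each siRNA. ASNS on chromosome 7 had the sign of its neighbours with SET siRNA (-0.27 beside a median of -0.43, 25 of 30 lower) and the opposite sign with control siRNA (0.49 beside -0.37, 22 of 30 lower). CTH on chromosome 1 (1.28 beside 0.15) and MTHFD2 on chromosome 2 (0.60 beside 0.03) stood far from their neighbours with control siRNA. The part of these chromosomal neighbourhoods in the results was not tested.

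**Figure D5:**
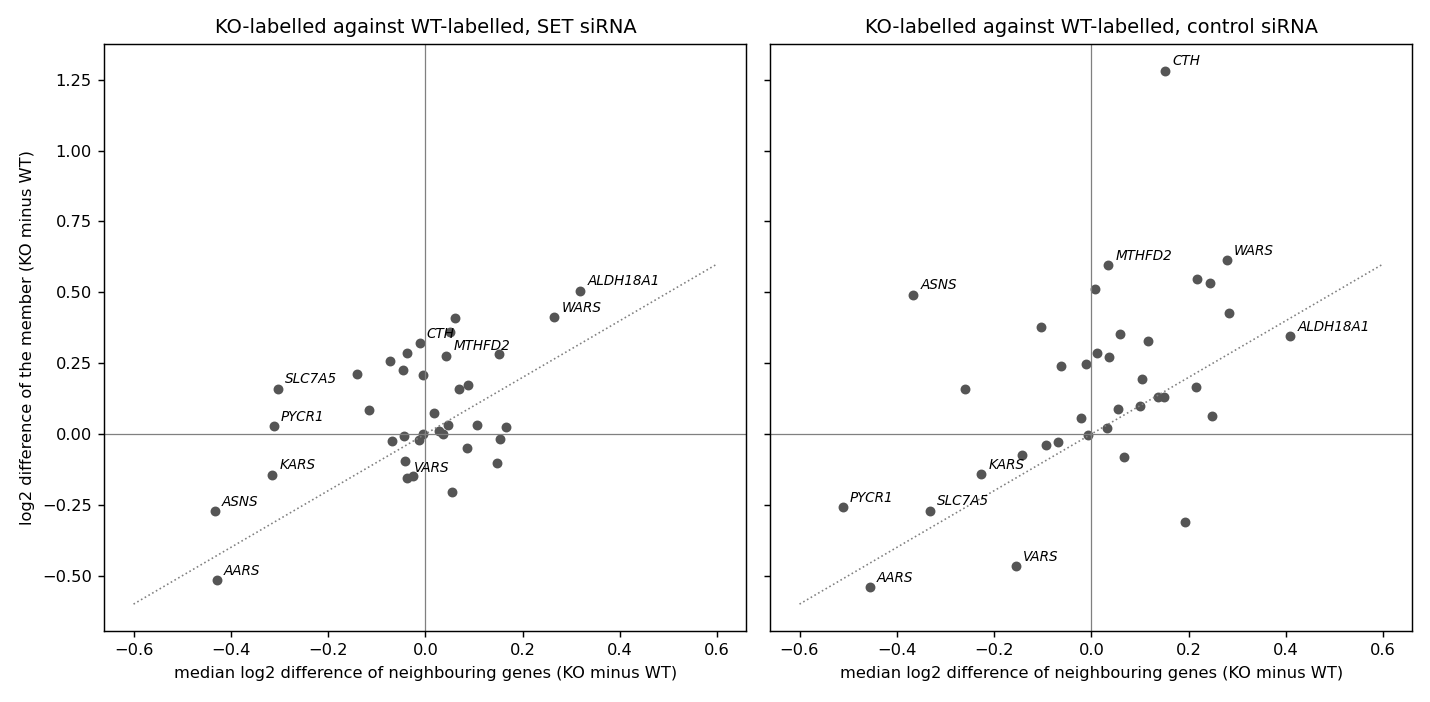
KO-labelled against WT-labelled difference of each gene (vertical, log2) beside the median difference of its 30 neighbouring tested genes (horizontal, log2), with SET siRNA on the left and control siRNA on the right; 37 of the 38 genes are plotted, since ALDH1L2 had a mean under 5 FPKM, and the dotted line marks equal values. AARS lies near the line under both siRNAs, while with control siRNA CTH (1.28) and ASNS (0.49) lie far above it.

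Counts of the other lists between the lines stand beside 23.6% of all tested genes called higher and 24.8% lower with SET siRNA. With control siRNA the all-gene shares were 25.7% and 22.2%. In the regulator list, 6 of 18 genes were higher and 5 lower in the KO-labelled line with SET siRNA, led by ATF3 (-1.26), SESN2 (-1.16), TRIB3 (0.83), a pseudokinase induced by ATF4, and CEBPG (0.42), a dimer partner of ATF4. With control siRNA 12 were higher and 3 lower, led by TRIB3 (0.92), DDIT3 (0.77), CHAC1 (0.51) and CEBPG (0.48). TRIB3 measured 83.4 and 79.0 FPKM in KO-labelled cells with SET siRNA against 44.7, 43.8 and 47.1 FPKM in WT-labelled cells with SET siRNA, and 42.3 and 39.3 FPKM against 22.1, 20.8 and 20.3 FPKM in KO- and WT-labelled cells with control siRNA. Its KO-labelled libraries were above the WT-labelled ones under both siRNAs. Mitochondrial synthetases showed 3 higher and 4 lower with SET siRNA, among them PARS2 (-0.34), FARS2 (-0.27) and MARS2 (0.26), and 2 higher and 4 lower with control siRNA, among them RARS2 (0.45), FARS2 (-0.34) and VARS2 (-0.28). Among the 6 cytosolic synthetase and complex genes, FARSB (0.30) and AIMP2 (0.21) were higher and TARSL2 (-0.24) lower with SET siRNA. With control siRNA EEF1E1 (-0.29), FARSA (-0.29) and AIMP2 (-0.14) were lower.

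The remaining lists stand beside all-gene shares of 23.6% higher and 24.8% lower with SET siRNA and 25.7% and 22.2% with control siRNA. Folate and methionine genes had 6 higher and 3 lower in the KO-labelled line with SET siRNA, led by SHMT1 (1.07), SLC19A1 (0.64), ALDH1L1 (-0.63) and MAT2A (0.46), and 7 higher and 4 lower with control siRNA, led by ALDH1L1 (-0.76), SHMT1 (0.74), FPGS (-0.48) and AMT (-0.42). SHMT1 stood at 26.8 and 26.6 FPKM in KO-labelled cells against 12.1, 12.7 and 11.9 FPKM in WT-labelled cells with SET siRNA. The WT-labelled line was thus the low one for SHMT1, while its mitochondrial counterpart SHMT2 was not called between the lines. The further enzymes had 7 higher and 2 lower with SET siRNA, led by GPT2 (0.92), GLUD1 (0.66), ASL (-0.56) and GOT1 (0.51), and 6 higher and 2 lower with control siRNA, led by GPT2 (0.84), ASS1 (0.64), ASL (-0.63) and GOT2 (-0.52). The further transporters were called higher in 4 cases and lower in 6 with SET siRNA, led by SLC43A1 (0.91), SLC38A10 (-0.90), SLC7A2 (0.82) and SLC38A7 (-0.70), and higher in 6 and lower in 6 with control siRNA, led by SLC7A11 (0.70), SLC38A7 (-0.65), SLC38A10 (-0.64) and SLC43A1 (0.63).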

How the data were processed

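Total RNA was extracted and TruSeq RNA libraries were made, per the labels' protocols. The deposited files hold FPKM per gene with an interval and a status, computed by the authors with Cufflinks, per the file headers. The submitters' processing notes name Cufflinks 2.0.2, TopHat2 2.0.4 and bcl2fastq 1.8.4. The genome build behind the values is not given in the sources used here, nor is the annotation. Depth was implied from the intervals as 14288434 to 21775347 fragments per library. As 64.2 to 65.5% of low implied fragment numbers were whole within 0.05, the implied numbers were not used in a count test between groups. They gave only the depth and the chi-square between libraries of a group.

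A gene was tested if 2 or more libraries reached FPKM 1, which held for 14813 entries and not for 10780, and all 38 genes passed with status OK in every library. limma 3.58.1 in R 4.3.3 fitted log2(FPKM + 1) with 4 groups over all 10 libraries (eBayes with trend), with Benjamini-Hochberg adjustment over all tested genes in each of 5 comparisons. This scale understates the fold change of genes with low FPKM. The fit was tested on simulated data. Python 3.11.15 with pandas 2.3.3, numpy 2.4.6 and matplotlib 3.10.9 did the rest. Groups came from the sample labels, and replicates are labelled biological without a description of the cultures, and the spread that p-values rest on is that among libraries, which may be technical.

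The 38 genes and the other lists were chosen with earlier results of these data known. All 38 could be named. The 6 called with the largest rise and fall in each comparison were given in full, as were ASNS, PHGDH, PSAT1, MTHFD2, SLC7A5, SLC3A2, AARS, EPRS and QARS, and of each other list the 4 called genes with the largest change were named. SLC25A32, SLC7A11, TRIB3 and SHMT1 values per library, and the genes of other lists named beyond these, were chosen after their values were seen. The gene targeted in the KO-labelled line, and some results that these rules select, are not reported here. The results were recomputed with a pseudocount of 0.1, without the filter or with one at FPKM 5, after quantile or median-of-ratios scaling, on the compared libraries alone, with a replicate block, without the variance trend, and with each library left out in turn.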

Additional observations from a re-analysis of the deposited data

Results flagged for a closer look

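The SET siRNA response of 12 genes differed between the lines by the interaction test (limma, adjusted p below 0.05), each given as the KO-labelled minus the WT-labelled log2 change with both responses in that order. In the synthesis genes the differences were -0.96 for CTH (0.16 and 1.12), -0.76 for ASNS (0.73 and 1.49), -0.60 for ALDH1L2 (0.16 and 0.76), -0.53 for PSAT1 (-0.30 and 0.22), -0.37 for PSPH (0.22 and 0.59), -0.34 for PCK2 (0.20 and 0.54), -0.32 for MTHFD2 (0.47 and 0.79) and 0.31 for MTHFD1 (-0.03 and -0.33). In the transporters the difference was 0.43 for SLC7A5 (0.54 and 0.11). In the synthetases they were -0.35 for EPRS (0.27 and 0.62), -0.30 for SARS (0.49 and 0.79) and -0.27 for GARS (0.51 and 0.77). PSAT1 is the gene of the 12 called in opposite directions in the lines.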

How the results depend on the processing

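No called change of the 38 genes turned its direction under any alternative run. In KO-labelled cells the number that rose with SET siRNA was 23, and 15 when only the libraries compared were fitted, which leaves fewer samples to estimate the spread. The number that fell was 1, and 2 with median-of-ratios scaling and 0 with only the libraries compared. In WT-labelled cells 1 fell, and 2 with median-of-ratios scaling. With control siRNA 6 were lower in the KO-labelled line, and 3 with only the libraries compared. For the difference between responses, GARS lost its limma call without the filter, after median-of-ratios scaling or without the variance trend. Its adjusted p was 0.0632, 0.0587 and 0.0599. EPRS lost its call without the filter or the trend (adjusted p = 0.0606 and 0.0523), and VARS gained one after median-of-ratios scaling (adjusted p = 0.0493). In KO-labelled cells PCK2 and SLC1A4 lost theirs in the 3 settings named for GARS (adjusted p from 0.0509 to 0.0644). Leaving out each library in turn gave 17 to 23 higher and 0 to 2 lower in KO-labelled cells, 24 to 26 higher and 1 lower in WT-labelled cells, 1 to 6 higher and 4 to 13 lower for the difference between the responses, 10 to 15 higher and 2 to 6 lower between lines with SET siRNA, and 17 to 22 higher and 3 to 6 lower with control siRNA. Where this left 1 library in a KO-labelled group, its spread was taken to equal that of the remaining groups. Over all tested genes, median-of-ratios scaling gave 2648 higher and 2887 lower in KO-labelled cells and 3974 and 4075 in WT-labelled cells, where most calls were higher without it.

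Replicate numbers recur across groups, and deviations of same-numbered libraries correlated at 0.00 in KO-labelled cells, at -0.08, -0.03 and 0.07 in WT-labelled cells, at 0.04 and 0.07 between lines with SET siRNA and at 0.22 and 0.23 with control siRNA. With so few libraries per group, these values cannot tell whether same-numbered libraries share more than a number. With the replicate block, SET siRNA gave 22 higher and 1 lower in KO-labelled cells, 25 and 1 in WT-labelled cells, 2 and 10 were called for the difference, and 13 and 4 with SET and 20 and 6 with control siRNA between the lines. PCK2 lost its call in KO-labelled cells and between the lines with SET siRNA (adjusted p = 0.0561 and 0.0562).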
